A study of Homo sapiens with 12 samples.

Results

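The transcriptome of myeloma cells at day 0, the start of the series, was described from 3 libraries, H1, H2 and H3, chosen as all those that carry the time point of 0 day among the 12 libraries of the series. The libraries were made from total RNA of cells labelled MM1S, an established human multiple myeloma line, and the series followed such cells over 4 time points of NGI-1, an inhibitor of the oligosaccharyltransferase (OST) complex. The study describes the cells compared with its NGI-1 samples as untreated, while the treatment field reads NGI-1 for the day 0 libraries too, with 0 days of it, and no vehicle is named for them. The study speaks of its replicates in general as biological, but the sources do not say for these libraries whether each came from its own culture, so the spread between them may be technical. The series' other 9 libraries were not used, and no test was made. 59276 features were listed with their abundance as TPM, which counts reads per transcript length and scales them to 1 fixed total per library, so that levels of different genes can be set side by side. In what follows, a value after ± is the standard deviation over the 3 libraries (n = 3).

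Plasma cells are the antibody-secreting end stage of the B cell lineage, and myeloma is their malignancy. They shut down the surface and signalling genes of B cells, hold a large endoplasmic reticulum (ER), and depend on a chain of machines that move a nascent antibody through the membrane, attach N-glycans, fold it, inspect it and ship it. The transcription factor XBP1 drives much of this secretory programme, and OST is the enzyme that attaches the glycan. Myeloma cells commonly carry a rearrangement that puts an oncogene such as FGFR3 with NSD2, CCND1 or MAF beside the immunoglobulin heavy chain locus.

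The labelled line was checked first. MM1S is generally described as a line that makes a lambda light chain and carries a MAF rearrangement. In the 3 libraries kappa, not lambda, was the abundant light chain, MAF was low and FGFR3 was high, with the values given below. These values go against the label, and whether the cells were of the labelled line was not tested, so the libraries are named here as labelled.

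The light chain finding rests on 2 constant segments whose letters differ. The first 150 bases of each coding part are shown, 5′ to 3′ on the coding strand, from the GENCODE transcripts of GRCh38. IGKC, the kappa constant segment, is read here from chr2:88857534-88857683 (minus strand), and IGLC1, a lambda constant segment, from chr22:22895375-22895524 (plus strand).
IGKC: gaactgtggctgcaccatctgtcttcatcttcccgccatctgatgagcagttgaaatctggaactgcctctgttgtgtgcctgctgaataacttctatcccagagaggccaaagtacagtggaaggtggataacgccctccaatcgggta
IGLC1: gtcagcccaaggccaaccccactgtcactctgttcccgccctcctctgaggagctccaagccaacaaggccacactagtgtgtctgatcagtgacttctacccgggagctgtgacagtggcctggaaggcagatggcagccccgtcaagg
The whole IGKC transcript shared 0 of its 493 runs of 31 bases with IGLC1, and none with IGLC2 or IGLC3.

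IGKC was the most abundant feature of all, with a mean of 25260.4 ± 1610.5 TPM. It reached 26953 TPM in H1, 23747 in H2 and 25082 in H3. Its closest partner was IGKV3-15, a kappa variable segment on chromosome 2 (89085177 to 89085787, minus strand), at 27915 TPM in H1, 22597 in H2 and 24917 in H3. The ratio of IGKV3-15 to IGKC was 1.04 in H1, 0.952 in H2 and 0.993 in H3, so the variable and constant segments stood at close to equal levels per length in each library. IGKV3-15 made up 95.8% ± 0.250 of all TPM in kappa variable segments. IGKV3-7 followed at 1089 ± 176 TPM and IGKV3D-15 at 14.99 ± 5.12 TPM, and both share runs of bases with IGKV3-15, which had 70.1% of its 31-base runs in common with IGKV3D-15, so how reads were divided among these segments is uncertain.

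Lambda transcripts were scarce beside kappa. IGLC1 was at 552 TPM in H1, 507 in H2 and 560.1 in H3, and IGKC exceeded it 48.8-fold in H1, 46.8-fold in H2 and 44.8-fold in H3. The lambda constant segments together held 2.11% ± 0.0890 of light chain constant TPM. IGLC2 averaged 2.81 TPM and IGLC3 0.152 TPM, and IGLC4, IGLC5, IGLC6 and IGLC7 were listed at 0. The 57 lambda variable segments summed to 1.11 TPM, of which IGLV3-9 held 1.06. IGLL5, a lambda-like gene, was at 401 ± 37.9 TPM, but its last exon holds the whole of IGLC1, so reads of the pair cannot be assigned with certainty. No lambda variable segment stood at a level like that of IGLC1, whereas the kappa pair was at like levels.

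The heavy chain was divided in another way. Variable segments were abundant, with IGHV3-43 at 4100.4 TPM in H1, 3747 in H2 and 4032 in H3 and IGHV3-20 at 1314 TPM in H1, 1146 in H2 and 1210.3 in H3, both on chromosome 14. These segments held 76.2% and 23.5% of heavy variable TPM, and IGHV3-7 came next at 14.4 ± 1.86 TPM. Constant segments were nearly absent. IGHA1, the constant region of the IgA1 class, stood at 2.27 TPM in H1, 1.80 in H2 and 2.42 in H3. IGHE averaged 1.38 ± 0.335 TPM and IGHA2 0.435 ± 0.142 TPM, while IGHM, IGHD, IGHG1, IGHG2, IGHG3 and IGHG4 were listed at 0 in every library. Summed heavy variable TPM exceeded summed heavy constant TPM 1332-fold in H1, 1543-fold in H2 and 1120.4-fold in H3. A share by class therefore rests on 3.98 TPM in all, of which IGHA1 and IGHA2 held 65.4% ± 2.89. JCHAIN, the joining chain of secreted IgA and IgM polymers, was nonetheless at 8732 TPM in H1, 10731 in H2 and 9629.5 in H3. Whether the low constant levels belong to the cells or to the quantification was not tested. All 51 diversity and joining segments were listed at 0, and none of them is longer than 176 bases.

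Immunoglobulin features together took 6.21% in H1, 5.27% in H2 and 5.70% in H3 of all TPM, or 5.73% ± 0.473. Of the 340 features of these loci, 18 had a mean of at least 1 TPM, beside 11455 of all 59276 features. Kappa accounted for 5.15% of all TPM, heavy chain for 0.520% and lambda for 0.0544%. Variable and constant segments are separate features here, and a chain transcript that holds both is counted under each. These shares are therefore shares of summed feature TPM and overstate the number of chain transcripts. H1 had the highest immunoglobulin share and H2 the lowest, and IGKC and IGKV3-15 followed the same order.

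Beyond antibody, the most abundant transcripts were those of protein synthesis and the mitochondrial genome. Cytoplasmic ribosomal proteins took 28.9% ± 0.546 of TPM, and 76 of the 79 measured exceeded 1000 TPM on average. Among all 11455 features at 1 TPM or more, 145 reached 1000 TPM, these 76 included. RPS27 led them at 19969.7 TPM in H1, 20493 in H2 and 21270 in H3. RPL41 (11096 TPM), RPS18 (9657 TPM), RPL17 (7730.4 TPM), RPL10 (6910.1 TPM) and RPS23 (6849.7 TPM) were also among the 20 most abundant features. RPS4X was the lowest ribosomal protein at 806 ± 7.93 TPM, and the median member was at 3174 TPM. EEF1A1, which brings aminoacyl transfer RNA to the ribosome, was at 15579 TPM in H1, 16210.2 in H2 and 15638 in H3.

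Mitochondrially encoded features held 9.95% ± 0.702 of TPM. MT-ATP8, a subunit of ATP synthase whose short gene overlaps MT-ATP6, varied most among the 20 most abundant, with 17953 TPM in H1, 24931 in H2 and 18731 in H3. H2 was the high library for MT-ATP8, and also for MT-ND3 (7307 TPM in H1, 8503 in H2 and 6949 in H3). The cytochrome oxidase subunits MT-CO2 (10503 ± 555 TPM), MT-CO1 (9678 ± 192 TPM) and MT-CO3 (8743 ± 456 TPM) were steadier. MT-ND4L, which overlaps MT-ND4, reached 9329 TPM, MT-ATP6 8191 TPM and MT-ND4 6882 TPM, and how reads were divided within the overlapping pairs is uncertain. The 22 mitochondrial transfer RNAs, none longer than 75 bases, were all listed at 0. FTL, the light chain of the iron store ferritin, completed the leading 20 at 7342 TPM in H1, 6169 in H2 and 6780.1 in H3, and was 18.9-fold ± 1.90 above FTH1, the heavy chain.

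**Figure D1:**
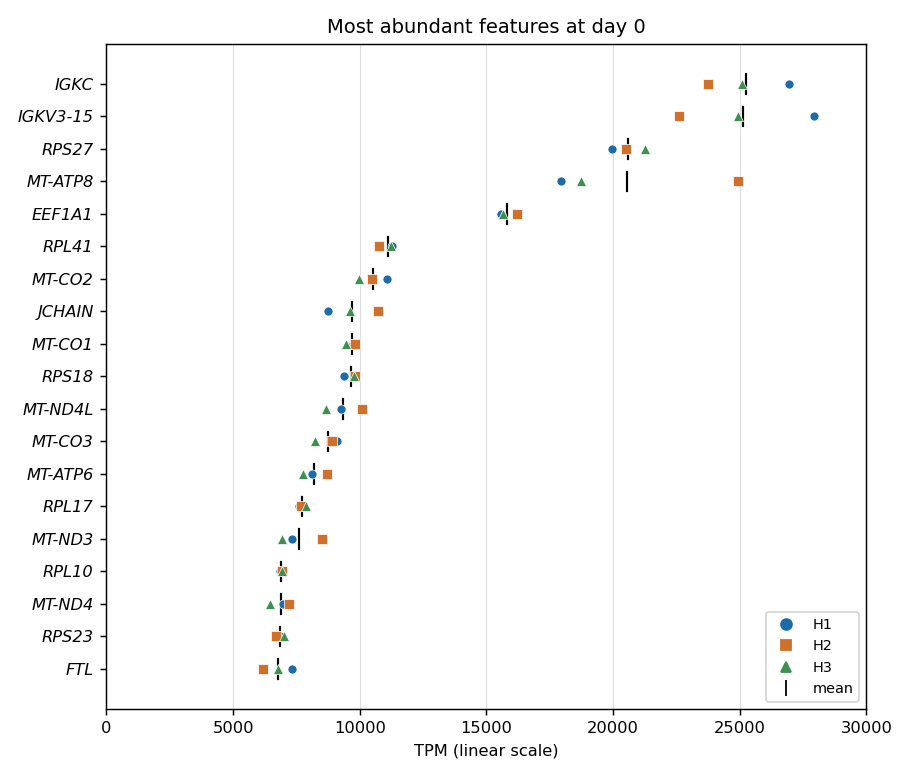
Rows are features from among the 20 with the highest mean TPM, with the value of H1, H2 and H3 as points on a linear TPM axis and the mean as a black bar. Kappa segments lead, ribosomal proteins and mitochondrial messenger RNAs fill most rows, and the 3 libraries spread most for MT-ATP8 and IGKV3-15.

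The distribution was steep. The 10 most abundant features held 15.8% of TPM and the 100 most abundant 49.7%, while 11455 features reached a mean of 1 TPM, 6355 reached 10, 1136 reached 100 and 145 reached 1000. The median of those at 1 TPM or more was 12.5 TPM. Immunoglobulin, mitochondrial and ribosomal protein features took 44.6% between them. Outside these 3 classes, and picked after their values were seen, the highest after EEF1A1, JCHAIN and FTL were PPIA (4658), RPS28P7 (4335) and PTMA (3399), in mean TPM. RPS28P7 is a processed pseudogene near-identical to RPS28 (1812 TPM), with which it shares 154 runs of 31 bases, so its level is uncertain. UAP1, which makes the UDP-N-acetylglucosamine that feeds N-glycan assembly, was a further member of this group, also picked after its value was seen, at 2116 TPM in H1, 2250.4 in H2 and 2234 in H3.

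Transcription factors and cofactors known from plasma cells were of unequal abundance. XBP1 stood apart at 1451 TPM in H1, 1594 in H2 and 1597 in H3, 8.12-fold ± 1.14 above IRF4, a factor that myeloma cells need to survive. IRF4 was at 202 TPM in H1, 205 in H2 and 170.0 in H3. PRDM1, the repressor that ends the B cell programme, was at 111 TPM in H1, 114 in H2 and 93.3 in H3, and the IRF4 to PRDM1 ratio was 1.82 in H1, 1.79 in H2 and 1.82 in H3. The range of IRF4 overlapped with that of the Polycomb protein BMI1 (167 ± 20.2 TPM), and that of BMI1 with the B cell coactivator POU2AF1 (155 ± 5.09 TPM). The range of MEF2C (105 ± 6.25 TPM) lay within the range of PRDM1. The elongation factor ELL2, which favours the secreted form of heavy chain, was at 70.3 ± 7.55 TPM and its partner EAF2 at 29.8 ± 2.82 TPM. IKZF1, a target of lenalidomide through cereblon, was at 38.6 ± 1.46 TPM, 5.15-fold ± 1.11 above IKZF3 (7.67 ± 1.22 TPM), and CRBN, which encodes cereblon, was at 20.2 ± 1.15 TPM. CREB3L2 was at 26.0 ± 1.49 TPM and BHLHA15, a factor of secretory cells, at 14.8 TPM in H1, 12.6 in H2 and 23.6 in H3. ZBTB20 was the one of the 14 factors below 1 TPM, at 0.0759 TPM in H1, 0.0875 in H2 and 0.909 in H3. The other 13 reached 1 TPM, beside 11455 of all 59276 features and 10217 of the 19478 protein-coding ones.

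Of 28 surface proteins of plasma and myeloma cells, 22 reached 1 TPM. Beside them, 11455 of all 59276 features and 10217 of the 19478 protein-coding ones did. Of the 22 surface proteins, 11 reached 100 TPM, beside 9.92% of all features at 1 TPM or more. ITGB7, an integrin chain, was highest at 986 TPM in H1, 952 in H2 and 983 in H3. CD48 followed at 787 TPM in H1, 799 in H2 and 832 in H3. TNFRSF17, which encodes the survival receptor BCMA, was at 549 TPM in H1, 577 in H2 and 606 in H3, and SDC1, which encodes CD138, at 496 TPM in H1, 478 in H2 and 512 in H3. These 4 showed little spread, with SDs of 18.8, 23.4, 28.5 and 17.3 TPM. BSG (349 ± 19.1 TPM) and CD44 (344 ± 14.8 TPM) completed the leading 6. CD27, a memory B and normal plasma cell receptor, was listed at 0. Of the surface targets of approved or tested myeloma therapies, named after their values were seen, GPRC5D was at 216 ± 19.9 TPM, SLAMF7 at 156 ± 4.52 TPM and CD38 at 45.9 ± 4.23 TPM, whereas FCRL5 was at 0.0422 ± 0.00562 TPM. ITGB1, an integrin chain that can pair with ITGA4, was at 64.2 ± 4.84 TPM, lower than ITGB7 in every library.

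All 18 genes of the intracellular plasma cell programme exceeded 10 TPM, beside 55.5% of all features at 1 TPM or more. After JCHAIN, SUB1 was at 1968 ± 210.1 TPM and TXNDC5, a disulfide isomerase of the ER, at 1942 ± 11.6 TPM. SEC11C, the catalytic signal peptidase subunit rich in secretory cells, reached 874 ± 41.4 TPM, 5.16-fold ± 0.1004 above SEC11A. SSR4 was at 815 ± 33.6 TPM, HSP90B1 at 801 ± 31.2 TPM, and CRELD2 was lowest at 13.9 ± 0.942 TPM.

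Most B cell genes were close to absent. Of 25 markers, 3 reached 1 TPM, beside 11455 of all 59276 features and 10217 of the 19478 protein-coding ones. The median of the 25 was 0.131 TPM. CD79B, a chain of the B cell receptor, led at 10.7 TPM in H1, 9.04 in H2 and 12.04 in H3, while its partner CD79A averaged 0.153 TPM. BACH2, a repressor of plasma cell fate, was at 2.19 ± 0.520 TPM and HLA-DRA at 1.82 ± 0.606 TPM, and CD40 at 0.809 ± 0.161 TPM, HLA-DRB1 at 0.289 ± 0.01005 TPM and CR2 at 0.282 ± 0.0561 TPM completed the leading 6. PAX5, the factor that keeps B cell identity, averaged 0.00992 TPM and was named after its value was seen. MS4A1, CD22, SPI1 and BTK were among those listed at 0.

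Markers of other cells that a culture could hold were mostly low as well. In bulk RNA, few cells with a transcript and little of it in each cell cannot be told apart. Over all 59276 features, 11455 reached 1 TPM, and over the 19478 protein-coding ones 10217 did. The counts of markers at 1 TPM stand beside these shares. The 19 T and NK cell markers summed to 18.7 to 20.5 TPM, with 2 at 1 TPM or more, TRBC2 (15.8 ± 0.378 TPM) and CD3E (2.998 ± 0.294 TPM), and 8 listed at 0, CD3D, CD3G and LCK among them. The 13 myeloid markers summed to 6.11 to 6.20 TPM, nearly all from CD68 (5.36 ± 0.588 TPM), and MPO, S100A8 and ITGAM were at 0. The 11 erythroid markers summed to 16.2 to 18.9 TPM, with EPOR at 12.1 ± 0.550 TPM and HBD at 4.74 ± 1.05 TPM but HBB at 0. Of 8 epithelial markers, which summed to 14.8 to 18.7 TPM, the keratins KRT18 (13.2 ± 1.58 TPM) and KRT8 (2.90 ± 0.587 TPM) passed 1 TPM, and EPCAM was at 0. The 11 stromal and endothelial markers summed to 0.738 to 1.24 TPM, none of them reached 1 TPM, and FN1 was highest at 0.779 ± 0.0709 TPM.

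Genes linked to the recurrent rearrangements of myeloma covered a wide range. FGFR3, a receptor tyrosine kinase on chromosome 4 (1793293 to 1808872, plus strand), was at 287 TPM in H1, 265 in H2 and 301 in H3. NSD2, the histone methyltransferase beside it (1871424 to 1982207), was at 88.2 TPM in H1, 89.5 in H2 and 83.3 in H3. These neighbours are moved together to the heavy chain locus in one subset of myeloma, and FGFR3 exceeded NSD2 by 3.28-fold ± 0.326. MAF, on chromosome 16, was at 9.31 TPM in H1, 8.89 in H2 and 8.46 in H3, and FGFR3 exceeded it 30.9-fold in H1, 29.8-fold in H2 and 35.5-fold in H3. Of the features at 1 TPM or more, 41.2% were lower than MAF and 96.4% lower than FGFR3. MAFA was listed at 0.

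The cyclins D, which drive entry into the cell cycle and mark expression classes of myeloma, were ordered without overlap between libraries. CCND1 was highest at 46.5 TPM in H1, 44.02 in H2 and 38.1 in H3. CCND3 was at 18.5 TPM in H1, 15.1 in H2 and 18.0 in H3, and CCND2, the cyclin that MAF is known to raise, at 10.7 TPM in H1, 10.7 in H2 and 10.5 in H3. CCND2 held 15.1% ± 0.820 of cyclin D TPM and CCND1 60.5% ± 3.05. MYEOV, a gene near CCND1 on chromosome 11, was at 58.1 ± 1.42 TPM. MYC was at 97.2 TPM in H1, 83.1 in H2 and 79.8 in H3, with ranges overlapping those of NSD2, while MYCL averaged 0.985 TPM and MYCN 0.0586 TPM.

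Genes known as MAF targets in myeloma were split. ITGB7 (974 TPM), the mTOR inhibitor DEPTOR (108 ± 3.81 TPM) and the chemokine receptor CCR1 (37.1 ± 1.89 TPM) were well above MAF itself. NUAK1 (2.09 ± 0.395 TPM), TLR4 (0.991 ± 0.308 TPM), CEACAM1 (0.656 ± 0.194 TPM) and CX3CR1 (0.0265 ± 0.0188 TPM) were low, and SPP1 was listed at 0. In all, 5 of 9 reached 1 TPM, beside 11455 of all 59276 features and 10217 of the 19478 protein-coding ones. Of these 5 MAF targets, 4 reached 10 TPM, beside 55.5% of all features at 1 TPM or more.

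**Figure D2:**
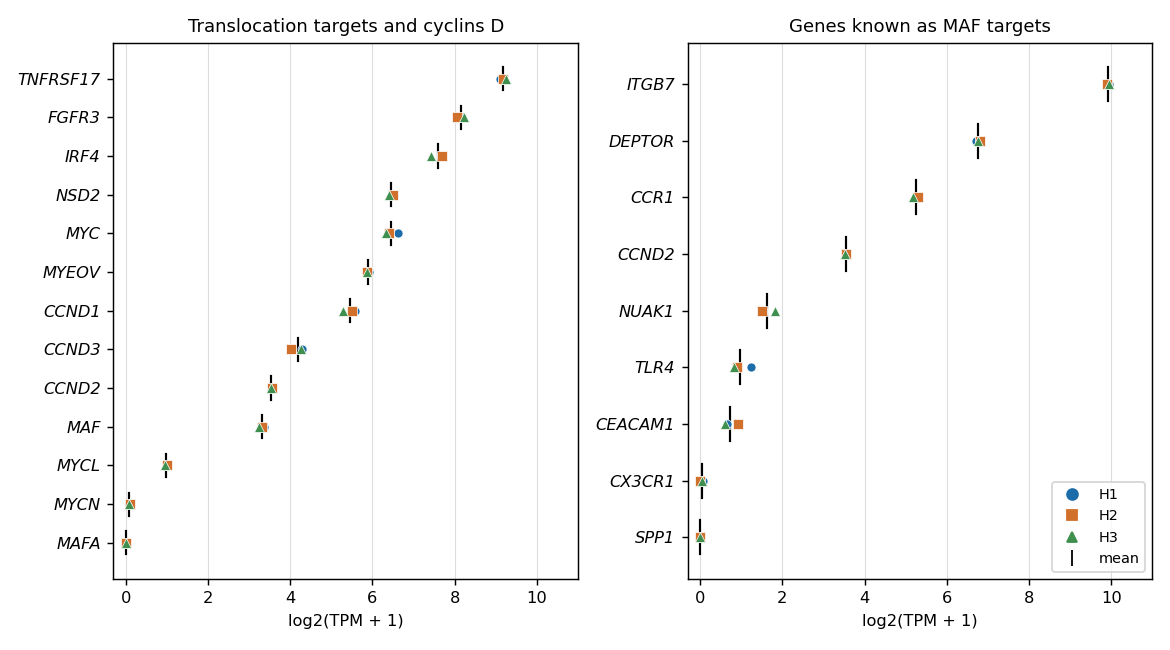
Points give log2(TPM + 1) in H1, H2 and H3 for genes linked to myeloma rearrangements, with the cyclins D, (left) and for genes known as MAF targets (right), and black bars give means. FGFR3 lies high and MAF low, CCND1 lies above CCND3 and CCND2, and of the MAF targets ITGB7, DEPTOR and CCR1 are the highest.

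Copy number was not measured in these libraries. Among the 32 driver and copy number genes, CKS1B, a cell cycle gene on chromosome 1, was highest at 393 ± 2.10 TPM. CDKN2C, a cyclin-dependent kinase inhibitor, was at 374 ± 5.06 TPM, the survival protein MCL1 at 352 ± 25.5 TPM, NRAS at 295 ± 23.4 TPM, FGFR3 at the level above and CDK4 at 158 ± 9.12 TPM, and LTB was listed at 0.

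In the BCL2 family, MCL1 exceeded BCL2 (3.81 ± 0.296 TPM) by 92.8-fold ± 8.98. Of the other restrainers of cell death, BCL2L1 was at 38.5 ± 1.26 TPM, BCL2L2 at 2.31 ± 0.471 TPM and BCL2A1 at 1.39 ± 0.233 TPM. The pore formers BAX and BAK1 were at 127 ± 8.28 and 77.2 ± 1.71 TPM, and BOK was at 0. Of the BH3-only genes, BID (45.4 ± 1.45 TPM) and BAD (29.9 ± 5.10 TPM) were highest, then came BMF (13.0 ± 1.37 TPM), BCL2L11 (10.5 ± 1.54 TPM), PMAIP1 (10.4 ± 1.36 TPM), BIK (3.80 ± 0.615 TPM), BBC3 (2.31 ± 0.569 TPM) and HRK (0.726 ± 0.0659 TPM). TNFSF10, which encodes the death ligand TRAIL, was at 0.189 ± 0.0390 TPM.

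All 22 genes of cell division and DNA replication exceeded 10 TPM, beside 55.5% of all features at 1 TPM or more. RRM2, a subunit of ribonucleotide reductase, was highest at 467 ± 18.2 TPM, followed by UBE2C (326 ± 20.9 TPM), CCNB1 (200.4 ± 9.48 TPM), MCM7 (173 ± 5.74 TPM), PCNA (141 ± 3.16 TPM) and TYMS (139.9 ± 6.91 TPM), and CCNE2 was lowest at 17.6 ± 3.77 TPM.

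The secretory machinery held 2.73% in H1, 2.73% in H2 and 2.74% in H3 of TPM, over 118 genes in 5 lists. The summed TPM of immunoglobulin features was 7.003-fold ± 0.607 that of the 29 ER chaperones and folding enzymes. A chain transcript with a variable and a constant segment enters the immunoglobulin sum under both, so this is not a ratio of transcripts.

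At the membrane, SEC61G, the gamma subunit of the translocon, was at 1370.5 TPM in H1, 1490.1 in H2 and 1529 in H3. SEC61B was at 643 TPM in H1, 611 in H2 and 656 in H3 and SEC61A1, the pore itself, at 232 TPM in H1, 228 in H2 and 226 in H3, so that transcripts of the 3 partners of 1 channel were unequal in every library. The translocon-associated subunits SSR2 (1043 ± 24.5 TPM) and SSR4 (815 ± 33.6 TPM), together with SEC11C, TRAM1 (797 ± 76.4 TPM) and SEC61B, completed the leading 6, and SEC61A2 was lowest at 1.81 ± 0.150 TPM.

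OST transfers a preassembled glycan to asparagine residues of the nascent chain. Its 12 subunits had a median TPM of 313 in H1, 300.4 in H2 and 310.2 in H3, and 10 of them exceeded 100 TPM, beside 9.92% of all features at 1 TPM or more. OST4, a small subunit, was highest at 777 TPM in H1, 713 in H2 and 799 in H3. KRTCAP2, which ties the complex to the translocon, was at 484 ± 43.6 TPM and RPN2 at 428 ± 13.4 TPM, and their ranges overlapped. DAD1 (361 ± 16.8 TPM) overlapped with STT3A, the catalytic subunit that acts during translocation, at 362 TPM in H1, 339 in H2 and 339 in H3. STT3B, the catalytic subunit that acts after translocation, was at 194 TPM in H1, 222 in H2 and 199 in H3. STT3A exceeded STT3B 1.86-fold in H1, 1.53-fold in H2 and 1.70-fold in H3. RPN1 (315 ± 5.59 TPM) lay above DDOST (299 ± 6.996 TPM), whose range overlapped with that of TMEM258 (285 ± 23.3 TPM), and OSTC (218 ± 7.14 TPM) overlapped with STT3B. Of the alternative oxidoreductase subunits of STT3B complexes, MAGT1 was at 38.1 TPM in H1, 39.4 in H2 and 42.5 in H3 and TUSC3 at 0.205 TPM in H1, 0.131 in H2 and 0.231 in H3, so MAGT1 was the abundant form.

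**Figure D3:**
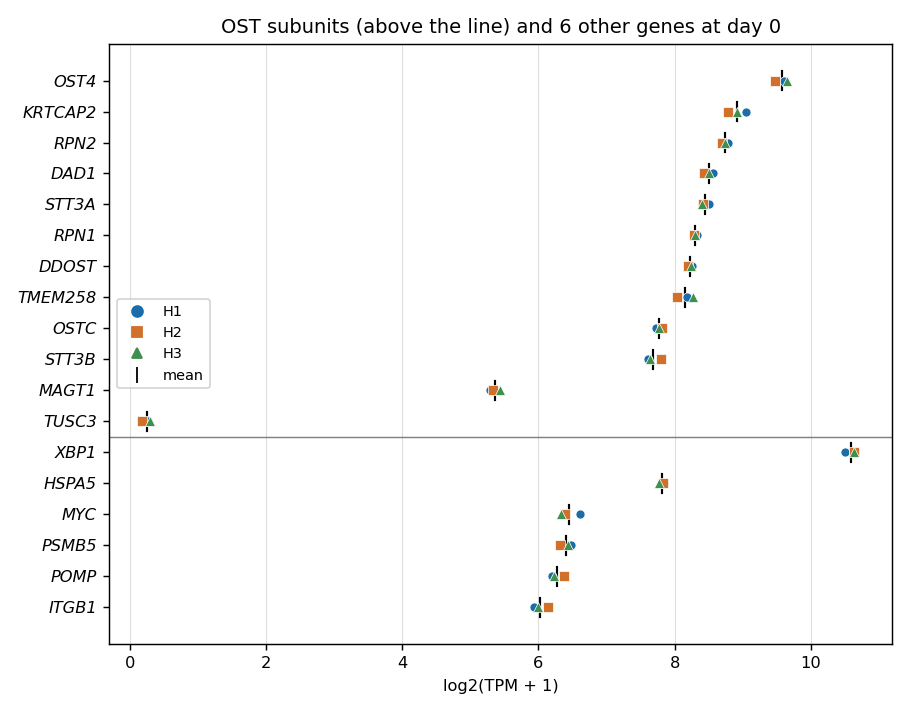
Points give log2(TPM + 1) of the OST subunits (above the grey line) and of XBP1, HSPA5, MYC, PSMB5, POMP and ITGB1 (below it) in H1, H2 and H3, with means as black bars. OST subunits other than MAGT1 and TUSC3 lie above MYC, PSMB5, POMP and ITGB1 in all 3 libraries.

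Folding enzymes were led by TXNDC5 at 1929 TPM in H1, 1950.4 in H2 and 1946 in H3. The lectin chaperone CALR, which holds glycosylated chains, was at 956 ± 15.8 TPM and its membrane counterpart CANX at 640.3 ± 38.4 TPM. The prolyl isomerase PPIB was at 947 ± 21.0 TPM, HSP90B1 (GRP94) at 801 ± 31.2 TPM and P4HB at 497 ± 10.2 TPM. HSPA5 (BiP), the Hsp70 of the ER, was at 230.0 TPM in H1, 227 in H2 and 218 in H3, below all of these and named after its value was seen. ERO1B was lowest at 0.807 ± 0.372 TPM.

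Promoters of several of these genes hold an ER stress element, the letters CCAAT followed after 9 bases by CCACG, which is the known response element of ATF6 and XBP1. Stretches around exact matches are shown to place the element beside the levels, with CCAAT and CCACG in capitals, on the strand that reads the element forward, from RefSeq promoters of GRCh38.p14.
XBP1 (chr22:28800583-28800641, minus strand): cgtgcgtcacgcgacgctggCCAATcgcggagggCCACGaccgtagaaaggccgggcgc
HSPA5 (chr9:125241371-125241429, minus strand): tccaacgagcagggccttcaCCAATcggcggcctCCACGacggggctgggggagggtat
PDIA6 (chr2:10812833-10812891, minus strand): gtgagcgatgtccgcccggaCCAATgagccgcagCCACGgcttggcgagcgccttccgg
CALR (chr19:12938364-12938422, minus strand): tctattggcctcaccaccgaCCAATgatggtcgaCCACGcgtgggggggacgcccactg
HSP90B1 (chr12:103930196-103930254, plus strand): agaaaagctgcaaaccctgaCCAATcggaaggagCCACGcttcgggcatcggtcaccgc
The element lies 34 bases before the start site in XBP1, 48 in HSPA5, 68 in PDIA6, 207 in CALR and 176 in HSP90B1, and in CALR it is read on the strand opposite to the gene. HSP90B1 held a further match 71 bases before its start site. Exact matches on either strand were found for 7 of 28 ER chaperones and folding enzymes with a promoter in the reference (CALR, CANX, CRELD2, ERO1B, HSP90B1, HSPA5 and PDIA6), beside 0.0916% of all genes with a promoter there and 0.172% of those at 1 TPM or more. Per window of that length, 0.0769% of all promoters held a match, and a gene with several promoters has more windows. Among XBP1 and the 7 folding genes with the element, levels spanned 0.807 TPM in ERO1B to 1547 TPM in XBP1. TXNDC5, the highest of the folding enzymes, had no exact match in these windows. A shorter XBP1 core, ACGTGG on either strand, was in 14 of 28 of the same genes, TXNDC5, MZB1 and HYOU1 among them, in 19 of 28 ER to Golgi genes and in 1 of 9 OST genes, beside 11.6% of all genes and 16.9% of genes at 1 TPM or more. It was in 9.72% of all promoters. A match describes letters and not a bound site.

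The sensors and effectors of the unfolded protein response were uneven. After XBP1, the translation factor EIF2S1 was at 370.5 ± 11.8 TPM and ATF4, the effector that its phosphorylation favours, at 338 TPM in H1, 302 in H2 and 334 in H3. The sensor kinase EIF2AK3 (PERK) was at 109 ± 5.06 TPM, ATF6 at 25.0 ± 0.921 TPM, ATF6B at 30.4 ± 3.93 TPM and ERN1 (IRE1), which splices XBP1, at 17.6 ± 0.983 TPM. DDIT3 (CHOP) was at 11.3 ± 0.522 TPM, TRIB3 at 11.4 ± 0.850 TPM and ATF3 lowest at 3.57 ± 0.2001 TPM. The phosphatase subunits PPP1R15A (24.4 ± 0.885 TPM) and PPP1R15B (23.2 ± 2.04 TPM), and the proteases MBTPS1 (28.7 ± 1.0003 TPM) and MBTPS2 (6.74 ± 0.688 TPM), stood beside a median of 25.0 TPM for the list.

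ER-associated degradation was led by UBE2J1, a ubiquitin-conjugating enzyme of the ER membrane, at 419 TPM in H1, 488 in H2 and 441 in H3. EDEM3 (159 ± 15.6 TPM), VCP (113 ± 2.56 TPM), HERPUD1 (103 ± 3.89 TPM), OS9 (99.3 ± 2.83 TPM) and SEL1L (91.3 ± 7.76 TPM) followed. In ER to Golgi transport KDELR1, the receptor that returns ER residents, was highest at 759.9 TPM in H1, 659 in H2 and 710.2 in H3. ARF1 (287 ± 14.5 TPM), the cargo lectin LMAN2 (272 ± 14.3 TPM), COPE (264 ± 18.1 TPM), TMED10 (233 ± 14.6 TPM) and COPA (226 ± 15.5 TPM) followed, and KDELR3 was lowest at 1.18 ± 0.614 TPM.

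All 37 listed proteasome genes exceeded 10 TPM and 26 exceeded 100, beside 55.5% and 9.92% of all features at 1 TPM or more. Their median was 136 TPM. The list leaves out PSMA8 and PSMB11, which were at 0. PSMB4 was highest at 895 TPM in H1, 808 in H2 and 862 in H3, followed by PSMD4 (454 ± 3.36 TPM), PSMA4 (368 ± 9.29 TPM), PSMA7 (364 ± 20.4 TPM), SEM1 (304 ± 13.9 TPM) and PSMB3 (287 ± 19.3 TPM). PSMB5, the subunit that bortezomib binds, was at 88.4 TPM in H1, 78.4 in H2 and 85.7 in H3, close to PSMB8 (87.8 ± 3.11 TPM), its counterpart in the immunoproteasome, with a ratio of 0.976 in H1, 0.928 in H2 and 0.969 in H3. POMP, the assembly chaperone, was at 76.1 ± 5.24 TPM and PSMB9 was lowest at 32.6 ± 2.02 TPM.

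The 3 libraries were close to each other. Pearson's r between pairs of libraries was 0.993, 0.994 and 0.994 across the 6355 features at 10 TPM or more on the log2 scale (features are not independent replicates), and 7 to 11 features differed by over 2-fold within a pair. TMEM160 varied most, with 2.76 TPM in H1, 17.0 in H2 and 29.5 in H3, followed by CCDC85B with 17.1 TPM in H1, 52.7 in H2 and 68.3 in H3 and CR381653.1 with 56.3 TPM in H1, 22.8 in H2 and 67.0 in H3. H1 was the low library for TMEM160 and CCDC85B, and H2 for CR381653.1. UBE2S (40.3 TPM in H1, 45.7 in H2 and 101 in H3), MRPL41 (70.6 to 180.2 TPM), PLA2G12A (8.28 to 22.2 TPM), SLX1B (6.64 to 17.3 TPM) and RNU2-1 (6.76 to 17.7 TPM) completed the 8 most variable. A feature's deviation in 1 library from the mean of the other libraries was set against the GC content of its longest transcript, which gave r = 0.288 for H1, -0.471 for H2 and 0.190 for H3 over 6245 features that share these libraries. Its part in the spread of single genes was not tested.

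Genes that cells in general use were high, EEF1A1, FTL and PPIA foremost, then EEF2 (2333), GAPDH (2179), B2M (2054), TUBA1B (1066), TMSB4X (879), ACTB (663), YWHAZ (546) and FTH1 (358), in mean TPM. HPRT1 was at 95.7 ± 2.99 TPM, POLR2A at 65.6 TPM in H1, 76.9 in H2 and 38.5 in H3 and TBP lowest at 5.65 ± 0.692 TPM. None of the 78 mitochondrial ribosomal proteins or 12 RNA polymerase II subunits was listed at 0, the lowest being MRPL57 at 12.8 TPM. Among 39 proteasome subunits found by symbol, 2 were at 0, PSMA8 and PSMB11. Among 13 V-type ATPase subunits, 2 were at 0, ATP6V1B1 and ATP6V1G3. Structured RNAs were less steady. RN7SL2, an RNA of the signal recognition particle, was at 110.2 TPM in H1, 77.5 in H2 and 161 in H3, RN7SL1 at 64.3 ± 24.1 TPM, MALAT1 at 84.4 ± 6.42 TPM, RMRP at 21.3 ± 8.50 TPM, NEAT1 at 14.9 ± 2.44 TPM and RN7SK at 9.67 ± 4.23 TPM. RPPH1 (5.39 ± 1.92 TPM), SNORD3A (4.09 ± 0.638 TPM) and SCARNA2 (0.556 ± 0.308 TPM) were lower, RNU1-1 was at 14.8 TPM in H1, 0 in H2 and 0 in H3, and 6 of 16, RNU4-1, RNU4-2 and TERC among them, were listed at 0.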

How the data were processed

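Cells labelled MM1S were profiled by paired-end total RNA sequencing from 200 ng of RNA, with over 60000000 read pairs per library per the labels. The submitters' processing notes name FastQC, Trimmomatic, STAR, Salmon and the build hg38, without versions, roles or an annotation. The authors deposited 1 table of log2(TPM + 1) values for 59276 features and 12 libraries. No counts are kept, so the depth behind a value is unknown and no counting interval is given. TPM was recovered as 2 to the power of the deposited value, less 1, in Python 3.11.15 with pandas 2.3.3 and numpy 2.4.6, drawn with matplotlib 3.10.9. Summaries are means and standard deviations over the 3 day 0 libraries, a feature at a mean of 1 TPM or more counts as expressed, and neighbours in an order are apart only where their ranges do not overlap. Symbols of 54680 features, which hold 98.9% of TPM, matched GENCODE 29 (GRCh38), used for loci and lengths, and promoters came from RefSeq. Of 521 entries in 24 gene lists, 520 were in the table, and RNU6-1 was not found. The text names the 20 most abundant features, the 6 highest and the lowest members of each list (every member of lists of up to 16, except markers of other lineages below 1 TPM, which are given by sums), immunoglobulin segments, the 8 most variable features at 10 TPM or more and a few single genes. The libraries, the lists and this rule were chosen with earlier results of these data known. Some members that the rule names are not reported here. Reads were not re-mapped, and glycosylation sites in proteins were not analysed here.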

Additional observations from a re-analysis of the deposited data

How the results depend on the processing

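83 of 95 recomputed values stayed within the standard deviation of the 3 libraries or, for counts, within 1.5 times. Taking the median of the libraries, averaging on the log2 scale, leaving out each library in turn and requiring 1 TPM in every library moved none beyond these limits. For shares, levels and ratios the limit was the spread of the same 3 libraries. A median or the loss of 1 library can hardly pass that limit, so those settings could not show instability there. Shares depend on what is in the total. Without mitochondrially encoded features the immunoglobulin share became 6.36%, that of ribosomal proteins 32.1%, that of the secretory lists 3.03%, and those of the 10 and 100 most abundant features 15.4% and 46.9%. Without the 20 most abundant features, which include IGKC and IGKV3-15, the immunoglobulin share became 0.896%, the mitochondrial share 2.35%, the secretory share 3.56%, and the next 10 and 100 features held 7.001% and 38.9%. These moves follow from the smaller total and the removed members. With IGLL5 counted as lambda, chosen after seeing the data, the lambda share of light chain constant TPM was 3.60%. At a minimum of 5 TPM, 1 B cell marker remained, CD79B. A mitochondrial share without mitochondrial features has no value. No paired analysis was possible because the result comes from no test. Without counts, low values carry no known precision.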
